A study of Rattus norvegicus with 16 samples.

Results

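Interferon-stimulated genes were examined in rat kidney cells kept at neutral or acidic pH. The genes were taken by symbol from a list of 45, chosen as known targets and components of the interferon response with Mx2 as the marker gene, and 44 of them had a row among the 32623 genes of the count table. Oas1b had none. RNA was sequenced from 16 libraries, 4 for each combination of cell line and pH. NRK-52E is an epithelial line from normal rat kidney and NRK-49F a fibroblast line from the same organ, and the labels name no modification of either. They were grown as an indirect co-culture in shared medium, NRK-52E on permeable filter inserts and NRK-49F on the bottom of the wells, so cell line and support cannot be told apart. After 24 h without serum, the co-cultures were kept for 48 h in medium of pH 7.4 as the control or pH 6.0 as the acidosis condition, no other agent being named. The 4 groups, of 4 libraries each, are called control (pH 7.4) and acidic (pH 6.0) for either line. The sources do not say whether the libraries of a group came from separate cultures, so the tests measure the spread between libraries, which may be technical.

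Interferons are secreted proteins that bind receptors on the cell surface and activate JAK kinases and STAT factors, which switch on a large set of antiviral genes. Type I interferons act through Ifnar1 and Ifnar2 and a complex that holds Stat2 and Irf9 and binds the interferon-stimulated response element, and Irf7 feeds back on interferon transcription. In the kidney, tubular cells and interstitial fibroblasts both carry this receptor and can express these genes during infection, injury and inflammation.

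Levels are FPM, fragments of a gene per 1000000 counted fragments, after TMM scaling of all 16 libraries. Library totals ran from 16201084 to 34784862 counted fragments, so that 3 counts stood for 0.0936 to 0.199 FPM. Values of single libraries are given in the order of their label numbers, N1 to N16, within each group. A gene was called changed where the false discovery rate (FDR) was below 0.01 in both edgeR and DESeq2, and the adjusted p-values printed are those of edgeR over all genes tested. Standard errors (SE) belong to edgeR's log2 fold changes. No gene length was used, so levels are compared between groups and not between genes. In these bulk libraries, fewer cells with an RNA and less of it per cell cannot be told apart.

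The cell type labels were checked against marker lists. Of 10 epithelial markers, 5 lay below 1 FPM in NRK-52E cells at pH 7.4, namely Epcam, Krt18, Cldn4, Cldn7 and Esrp1, and 7 did so at pH 6.0. Cdh1, the epithelial cadherin, had means of 1.63 and 0.310 FPM in control and acidic libraries of this line, and the tight junction gene Ocln 41.5 and 9.54 FPM. The epithelial list summed to 545, 506, 476 and 538 FPM in control and 377, 303, 340 and 330 FPM in acidic NRK-52E libraries. Its sum was 833, 794, 954 and 848 FPM in control and 208, 220, 202 and 199 FPM in acidic NRK-49F libraries. Krt8 held most of this sum in each group. At pH 7.4 every NRK-49F sum exceeded those of NRK-52E cells, against the labels, and at pH 6.0 every one lay below them. Ocln and Krt7 followed the labels, with means below 1 FPM in NRK-49F cells.

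Of 10 fibroblast markers, Thy1, Fap and Dcn lay below 1 FPM in all 4 groups, and Thy1 had no count in any library. The list summed to 7360, 7772, 6767 and 7804 FPM in control and 9458, 8835, 9439 and 7815 FPM in acidic NRK-49F libraries, most of it from Col1a1. It summed to 6477, 6456, 6380 and 6229 FPM in control and 3216, 2941, 2569 and 1828 FPM in acidic NRK-52E libraries, most of it from Col3a1, whose control mean was 6267 FPM. Col3a1 ran against the labels, higher in NRK-52E than in NRK-49F cells by 3.85 on the log2 scale at pH 7.4 and 5.59 at pH 6.0. The fibroblast receptor Pdgfra did follow the labels, with a control mean of 395 FPM in NRK-49F and 0.289 FPM in NRK-52E cells. So did Col1a1 (-7.96), Lum (-7.65), Twist1 (-5.98), Postn (-1.33) and Pdgfrb (-0.83), given as log2 differences of NRK-52E from NRK-49F cells at pH 7.4. The defining leukocyte genes Ptprc, Adgre1 and Tyrobp had no count in any library. Cd14 and Cd68 gave the largest parts of the leukocyte list, which summed to 97.2, 84.9, 77.0 and 77.8 FPM in control and 65.3, 72.4, 65.2 and 104 FPM in acidic NRK-52E libraries. In NRK-49F libraries that sum was 366, 344, 384 and 362 FPM in control and 362, 352, 383 and 389 FPM in acidic ones. Within it the mean of Cd68 went from 81.8 to 242 FPM and that of Cd14 from 281 to 129 FPM, so 2 opposite moves lay behind a level sum. Of 4 endothelial genes with a row, Kdr had no count. Their sum was 36.1, 45.5, 44.6 and 43.0 FPM in control and 6.79, 8.86, 7.42 and 8.38 FPM in acidic NRK-52E libraries, led by Tek. In NRK-49F libraries it was 8.66, 7.26, 6.55 and 8.99 FPM in control and 3.47, 2.58, 3.35 and 3.74 FPM in acidic ones, led by Vwf. The epithelial and endothelial sums were thus lower at pH 6.0 in both lines, and the fibroblast sum was lower in NRK-52E and higher in NRK-49F cells, in each case without overlap. The NRK-49F rise came from Col1a1 (0.40 on the log2 scale), whereas Col3a1 (-3.10), Pdgfrb (-2.01), Lum (-2.06), Postn (-0.38) and Twist1 (-0.39) had negative log2 fold changes there. The part of these shifts in the changes given here was not tested.

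In NRK-52E cells at pH 6.0, 15 of the 35 interferon-stimulated genes tested were higher, against 28.2% of all 13735 genes tested, and 9 were lower, against 28.5%. The 11 others were not called and 9 more did not pass the filter on low counts. In NRK-49F cells, 5 of 41 were higher, against 18.4% of all 13339 genes, and 22 were lower, against 19.4%, while 14 were not called and 3 were not tested. The share of lower genes in NRK-52E cells was thus near that of all genes, whereas the shares of lower genes in NRK-49F cells and of higher genes in NRK-52E cells lay above it. The genes were listed with earlier results of these data known, so these shares are a description and not an independent test. Over the listed genes, log2 fold changes had a median of 0.15 in the epithelial and -0.65 in the fibroblast line, and that of all genes tested was 0.00 in either line. Ifit1 and Oas1a passed the filter in NRK-49F cells through their control libraries alone and so had to differ, and Mx1, Mx2, Rsad2 and Gbp4 had no more than 2 acidic libraries above its cutoff. These 6 genes were also called with no filter. Without Ifit1 and Oas1a, and without the genes of the whole table that passed through one group alone, 20 of 39 were lower in NRK-49F cells, against 18.7% of 13131. The counts and medians describe the genes that passed and not all 44. Groups without overlap were common in this table. In NRK-52E cells the pH groups were separate for 62.9% of all genes tested and 25 of 35 listed genes, a similar share. In NRK-49F cells they were separate for 48.3% of all genes tested and 30 of 41 listed genes, Ifit1 and Oas1a included. A lack of overlap thus does not by itself set a listed gene apart. When libraries were scaled by their totals alone, the median of all genes in NRK-52E cells moved to -0.21 and that of the listed genes to -0.06, and of all called genes 37.6% rather than 49.7% were higher. The counts for the listed genes were then 14 higher and 10 lower. Without the acidic library N8, the number lower in NRK-52E cells went from 9 to 13, with Dhx58, Ifitm2, Ifitm3 and Oas1a called as well.

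Called in both lines were 18 of the 35 listed genes tested in both, against 2962 of all 12470 genes. Of these, 3 were higher in both (Ifnar2, Ifih1 and Bst2), 7 were lower in both (Ifnar1, Irf9, Mx2, Oasl2, Cmpk2, Parp14 and Ifi27), and 8 were higher in NRK-52E but lower in NRK-49F cells (Stat2, Irf1, Irf7, Isg15, Dtx3l, Gbp2, Ifi44 and Xaf1). None had the reverse combination. Of the 2962 genes called in both lines over the whole table, 39.8% were higher in both and 42.1% lower in both, so the 7 of 18 lower in both (38.9%) were near that share. Of those genes, 278 (9.39%) rose in NRK-52E but fell in NRK-49F cells and 256 had the reverse combination. The lines shared their medium, and no source pairs an NRK-52E library with an NRK-49F library.

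**Figure D1:**
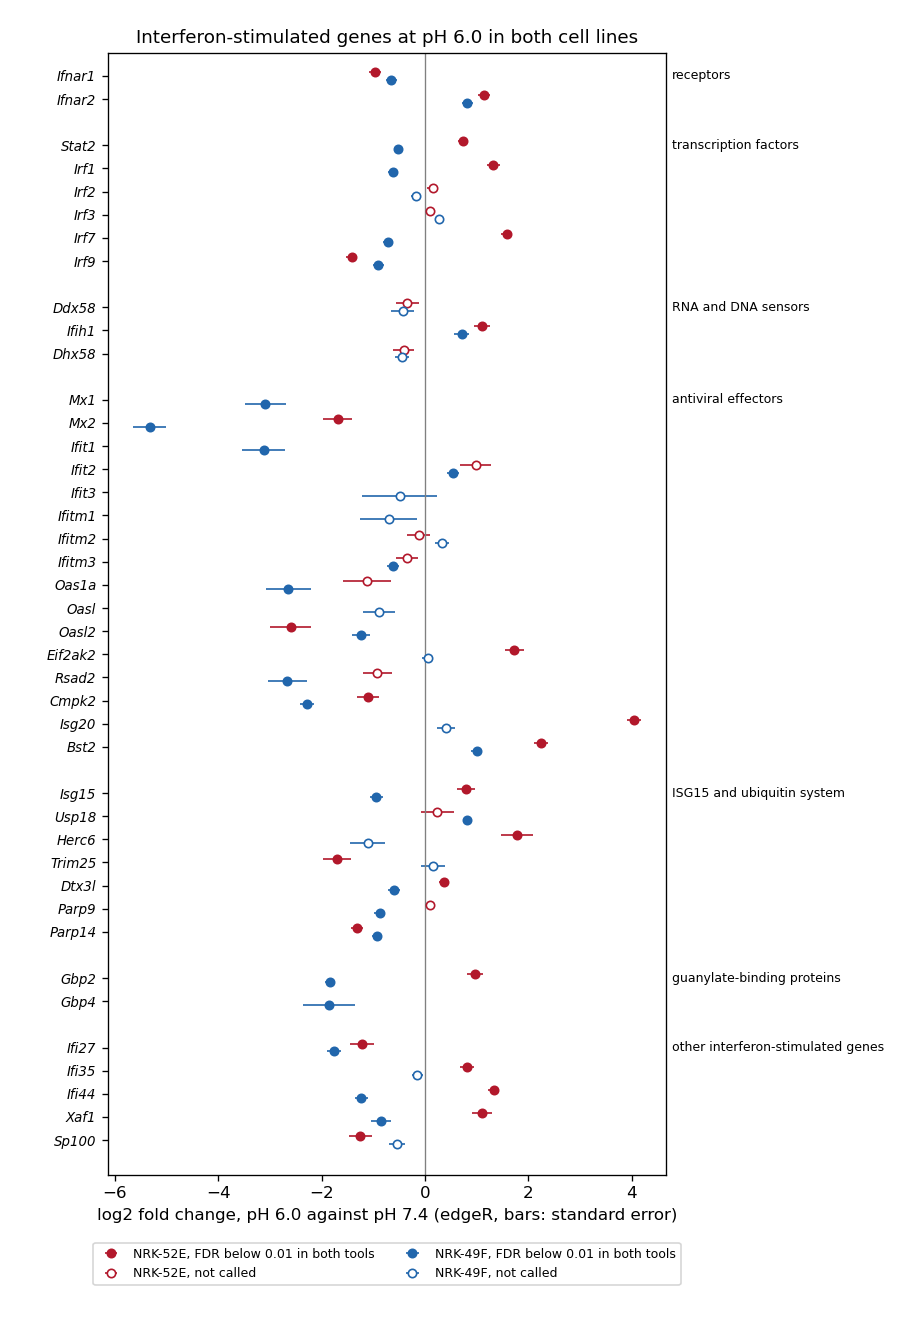
Log2 fold change at pH 6.0 against pH 7.4 (horizontal axis, edgeR) of each interferon-stimulated gene tested, by role, in NRK-52E (red) and NRK-49F cells (blue), with bars for the SE and filled points for genes with an FDR below 0.01 in both tools. Among genes tested in both lines, the widest separations are those of Mx2 (-1.69 and -5.32) and Isg20 (4.04 and 0.41), and 8 genes have filled points on opposite sides of 0.

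Whether pH acted differently in the lines was tested as an interaction over all 16 libraries, which uses the same libraries as the tests within each line. The effect was more positive in NRK-52E cells for 17 of 41 listed genes, against 19.3% of all 14679 genes, and more positive in NRK-49F cells for 3, against 17.5%. The 3 were Irf9, Oasl2 and Trim25, and with a library left out this count ran from 1 to 7. Among genes called for pH in both lines, the difference was not called for Ifnar1 (-0.33), Ifnar2 (0.31), Ifih1 (0.38), Parp14 (-0.41) and Ifi27 (0.52). That of Parp14 was called with library totals and without N8. Mx1, Ifit1, Ifit3, Ifitm1, Oasl and Gbp4 entered this test, though they reached 1 FPM in NRK-49F libraries alone and were not tested for pH in NRK-52E cells. None of their differences was called, such as those of Mx1 (0.44, SE 1.41), Ifit1 (1.53, SE 0.91) and Gbp4 (3.46, SE 1.21), except that of Gbp4 without N6 or N15. The median of the difference on the log2 scale, with these genes included, was 0.95 over the listed genes and -0.01 over all genes. With library totals as the scaling, these medians were 0.71 and -0.25, the counts 16 and 6, and 33.8% rather than 52.4% of all called differences were positive.

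The cell lines were also compared at each pH, with the same libraries as above. At pH 7.4, 25 of 39 listed genes were lower in NRK-52E than in NRK-49F cells, against 33.3% of all 14026 genes, and 3 (Irf3, Ddx58 and Trim25) were higher, against 33.3%. With library totals as the scaling, 22 were lower and 8 higher, the median of all genes moved from 0.03 to 0.34, and 65.7% rather than 50% of all called genes were higher. The call of Irf3 was lost with no filter, in the fit of all 16 libraries, and without N1, N5, N6, N9 or N10 (0.22 to 0.32). At pH 6.0, 11 of 35 were lower in NRK-52E cells, against 31.3% of all 13796 genes, and 13 were higher, against 28.6%, of which Ifih1 lost its call without N4, N7, N11, N15 or N16 (0.50 to 0.67). Mx1 and Gbp4 at pH 7.4, and Oasl at each pH, passed the filter through NRK-49F libraries alone and so had to differ. Without genes that passed through one line alone, 22 of 36 were lower at pH 7.4, against 32.7% of 12700, and 10 of 34 at pH 6.0, against 29.7% of 12529. Libraries of the lines did not overlap at pH 7.4 for 70.4% of all genes tested and 30 of 39 listed genes. At pH 6.0 this held for 64.2% of all genes tested and 26 of 35 listed genes. The median log2 difference of NRK-52E from NRK-49F cells was -0.89 at pH 7.4 and 0.00 at pH 6.0 over the listed genes, beside 0.03 and -0.03 over all genes. The summed level of the 44 genes was 1426, 1350, 1352 and 1367 FPM in control and 1812, 1640, 1766 and 1810 FPM in acidic NRK-52E libraries. In NRK-49F libraries it was 2816, 2785, 3113 and 2891 FPM in control and 2092, 2267, 2333 and 2467 FPM in acidic ones. All 4 acidic sums lay above the control sums in NRK-52E and below them in NRK-49F cells, with Ifitm2 as the largest part of the sum in each group.

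Mx2 encodes a dynamin-like GTPase of the antiviral Mx family and lies on chromosome 11 of the rn6 assembly used by the authors. Its level was 27.3, 18.9, 18.3 and 16.9 FPM in control and 6.92, 4.87, 3.73 and 9.494 FPM in acidic NRK-52E libraries, and 19.2, 20.4, 21.6 and 28.5 FPM in control and 1.11, 0.464, 0.258 and 0.468 FPM in acidic NRK-49F libraries. The groups at pH 7.4 overlapped between the lines, every library at pH 6.0 lay below those at pH 7.4 of its line, and the NRK-49F libraries at pH 6.0 were lowest. In order, the means were 22.4 ± 4.18 FPM (SD, n = 4) in NRK-49F and 20.3 ± 4.69 FPM in NRK-52E cells at pH 7.4, then 6.25 ± 2.53 FPM in NRK-52E and 0.576 ± 0.371 FPM in NRK-49F cells at pH 6.0. The highest pair did not differ beyond its spread (log2 fold change -0.06, SE 0.17, adjusted p = 0.734). In NRK-52E cells Mx2 fell by 1.69 on the log2 scale (SE 0.28, adjusted p = 3.03e-04), and in NRK-49F cells it fell by 5.32 on the log2 scale (SE 0.32, adjusted p = 1.72e-07), a level 40.0-fold lower. The NRK-49F libraries held 327 to 717 counts at pH 7.4 and 7 to 25 at pH 6.0. The size of the NRK-49F fall thus rests on few acidic counts. On log2(FPM + 1), a two-sided exact permutation test gave p = 0.0286 for pH in each line and for the lines at pH 6.0, the smallest it can give with n = 4 per group, and p = 0.4286 for the lines at pH 7.4. The pH effects differed by 3.61 on the log2 scale (SE 0.46, adjusted p = 4.62e-06).

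The table's column names carry a second number of unknown meaning, which crosses pH within each line. Within its values the log2 fold change of Mx2 was -1.99 (number 21) and -1.40 (number 22) in NRK-52E cells and -4.54 (number 20) and -6.09 (number 21) in NRK-49F cells, with 2 libraries per pH each. The edgeR adjusted p of the NRK-52E libraries with number 22 was 0.0490 and so missed the threshold.

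The type I receptor chains moved in opposite directions, and did so in both lines. Ifnar2, the chain that binds interferon with high affinity, was at 16.7, 18.2, 17.7 and 18.2 FPM in control and 37.1, 34.4, 38.4 and 45.4 FPM in acidic NRK-52E libraries, and 38.7, 34.0, 32.2 and 34.2 FPM in control and 55.4, 59.2, 64.1 and 66.3 FPM in acidic NRK-49F libraries. Libraries at pH 6.0 lay above those at pH 7.4 in each line, and NRK-49F cells were above NRK-52E cells at each pH. In NRK-52E cells Ifnar2 rose by 1.14 on the log2 scale (SE 0.12, adjusted p = 1.06e-05), and in NRK-49F cells it rose by 0.82 on the log2 scale (SE 0.10, adjusted p = 2.39e-05). Ifnar1, the partner chain, had means of 117 and 59.0 FPM at pH 7.4 and 6.0 in NRK-52E cells, where it fell by 0.97 on the log2 scale (SE 0.11, adjusted p = 2.31e-05). The corresponding NRK-49F means were 108 and 68.5 FPM, and Ifnar1 fell by 0.65 on the log2 scale (SE 0.10, adjusted p = 1.24e-04).

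Of 6 transcription factors, 3 were higher, against 28.2% of all genes, and 1 was lower, against 28.5%, at pH 6.0 in NRK-52E cells. In NRK-49F cells 4 were lower, against 19.4%, and none higher, against 18.4%. Irf1, a factor that drives genes of antigen presentation and type I interferon, stood at 29.9, 28.7, 27.4 and 29.2 FPM in control and 91.0, 68.0, 64.0 and 62.0 FPM in acidic NRK-52E libraries, and 114, 115, 108 and 104 FPM in control and 72.7, 62.4, 78.3 and 74.1 FPM in acidic NRK-49F libraries. The low group was NRK-52E at pH 7.4 and the high group NRK-49F at pH 7.4, and at pH 6.0 the lines overlapped. Irf1 rose by 1.32 on the log2 scale (SE 0.13, adjusted p = 5.92e-06) in NRK-52E cells and fell by 0.62 on the log2 scale (SE 0.09, adjusted p = 1.16e-04) in NRK-49F cells, and the effects differed by 1.92 (SE 0.16, adjusted p = 3.21e-08). Between the lines it was 3.62-fold lower in NRK-52E cells at pH 7.4, and at pH 6.0 no difference was detected (log2 fold change -0.01, SE 0.14, adjusted p = 0.949).

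Irf7, which amplifies interferon production, was measured at 28.9, 25.2, 26.3 and 28.4 FPM in control and 70.8, 75.4, 82.9 and 92.3 FPM in acidic NRK-52E libraries, and 73.6, 77.6, 81.9 and 85.7 FPM in control and 51.6, 51.5, 48.8 and 41.4 FPM in acidic NRK-49F libraries. Libraries of the lines changed places, NRK-52E being lower at pH 7.4 and higher at pH 6.0. Irf7 rose by 1.58 on the log2 scale (SE 0.11, adjusted p = 6.66e-07) in NRK-52E cells, a 2.98-fold rise, and fell by 0.72 on the log2 scale (SE 0.10, adjusted p = 9.71e-05) in NRK-49F cells, with a difference of 2.29 (SE 0.15, adjusted p = 2.12e-09). Stat2, a STAT factor of the type I complex, had levels of 55.1, 54.4, 54.4 and 51.4 FPM in control and 90.3, 94.8, 94.9 and 75.8 FPM in acidic NRK-52E libraries, and 75.9, 68.9, 74.0 and 79.3 FPM in control and 52.6, 49.6, 53.9 and 51.8 FPM in acidic NRK-49F libraries. Again no library at pH 6.0 overlapped with those at pH 7.4 of its line, upward in NRK-52E and downward in NRK-49F cells. Stat2 rose by 0.73 on the log2 scale (SE 0.09, adjusted p = 3.40e-05) in the former and fell by 0.52 on the log2 scale (SE 0.08, adjusted p = 2.29e-04) in the latter, with a difference of 1.24 (SE 0.12, adjusted p = 2.62e-07).

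Irf9, the DNA-binding part of the same complex, was at 36.2, 34.6, 40.6 and 37.5 FPM in control and 15.1, 13.1, 12.6 and 14.47 FPM in acidic NRK-52E libraries, and 35.9, 32.4, 31.0 and 37.6 FPM in control and 19.5, 18.9, 17.7 and 17.5 FPM in acidic NRK-49F libraries. It was low at pH 6.0 in both lines, without overlap. In NRK-52E cells Irf9 fell by 1.42 on the log2 scale (SE 0.11, adjusted p = 1.74e-06), and in NRK-49F cells it fell by 0.90 on the log2 scale (SE 0.10, adjusted p = 2.46e-05). The difference of -0.54 (SE 0.15, adjusted p = 0.00526) lost its call without N4, N5, N6, N7, N10, N11, N12 or N13, or with no filter on low counts, and ranged from -0.69 to -0.49 over the libraries left out. Irf2 and Irf3 were not called for pH in either line, with log2 fold changes of 0.15 and 0.10 in NRK-52E and -0.17 and 0.28 in NRK-49F cells. With library totals as the scaling, both values turned negative in NRK-52E cells, and Irf3 was called as higher in NRK-49F cells.

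Among the 4 sensors of foreign nucleic acid, Ifih1, which recognises long viral RNA in the cytosol, rose in both lines. Its level was 15.2, 17.3, 19.0 and 17.5 FPM in control and 30.0, 41.8, 43.3 and 31.5 FPM in acidic NRK-52E libraries, and 15.4, 18.9, 12.3 and 14.04 FPM in control and 25.8, 27.5, 21.6 and 24.3 FPM in acidic NRK-49F libraries. Each line had its 4 libraries at pH 6.0 above those at pH 7.4, while the lines overlapped at pH 7.4. Ifih1 rose by 1.10 on the log2 scale (SE 0.15, adjusted p = 6.49e-05) in NRK-52E cells and rose by 0.71 on the log2 scale (SE 0.15, adjusted p = 0.00156) in NRK-49F cells. Ddx58, also known as RIG-I, and its relative Dhx58 were not called, with log2 fold changes of -0.34 and -0.41 in NRK-52E and -0.43 and -0.44 in NRK-49F cells. Zbp1 reached at most 8 counts in a library and did not pass the filter. With no filter on low counts Zbp1 was called as lower in NRK-49F cells.

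The 17 antiviral effectors with a row included the largest changes in either direction among the listed genes. In NRK-52E cells 3 of the 11 tested were higher and 3 lower (27.3% each), near the 28.2% and 28.5% of all genes, while 5 were not called and 6 not tested. Without N8, 6 of the 11 were lower. In NRK-49F cells 2 of 16 were higher, against 18.4%, and 8 lower, against 19.4%, or 6 of 14 without Ifit1 and Oas1a, against 18.7%, while 6 were not called and 1 was not tested. Isg20, an exonuclease that degrades RNA, was at 11.3, 9.42, 9.44 and 10.4 FPM in control and 183, 135, 172 and 171 FPM in acidic NRK-52E libraries, and 27.9, 22.5, 23.2 and 18.6 FPM in control and 35.8, 32.4, 33.1 and 21.5 FPM in acidic NRK-49F libraries. The NRK-52E libraries at pH 6.0 stood far above all others, and the pH groups of NRK-49F cells overlapped. Isg20 rose by 4.04 on the log2 scale (SE 0.13, adjusted p = 1.43e-08) in NRK-52E cells, while NRK-49F cells had a log2 fold change of 0.41 (SE 0.17, adjusted p = 0.0566), which was not called except without N16. The effects differed by 3.62 (SE 0.22, adjusted p = 1.16e-09), and within the numbers 21 and 22 the NRK-52E log2 fold change was 3.93 and 4.13.

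Bst2, or tetherin, holds budding viruses at the cell surface, and its level was 24.0, 19.5, 19.5 and 23.2 FPM in control and 112, 81.8, 103 and 107 FPM in acidic NRK-52E libraries, and 40.9, 40.1, 41.0 and 36.7 FPM in control and 80.4, 81.7, 92.3 and 64.4 FPM in acidic NRK-49F libraries. It was high at pH 6.0 in both lines, where their libraries overlapped. Bst2 rose by 2.24 on the log2 scale (SE 0.13, adjusted p = 2.34e-07) in NRK-52E cells and rose by 1.004 on the log2 scale (SE 0.11, adjusted p = 1.87e-05) in NRK-49F cells, and the former effect was greater by 1.23 (SE 0.17, adjusted p = 1.31e-05). Eif2ak2, the kinase PKR that stops translation on viral RNA, was found at 36.0, 35.4, 39.6 and 38.4 FPM in control and 131, 148, 143 and 70.6 FPM in acidic NRK-52E libraries, and 53.4, 53.1, 46.8 and 41.8 FPM in control and 52.4, 47.8, 52.7 and 48.7 FPM in acidic NRK-49F libraries. In NRK-52E cells the library N8 was lowest at pH 6.0, yet above every library at pH 7.4, and in NRK-49F cells the groups overlapped. Eif2ak2 rose by 1.73 on the log2 scale (SE 0.19, adjusted p = 1.87e-05) in NRK-52E cells, against a log2 fold change of 0.05 (SE 0.10, adjusted p = 0.724) in NRK-49F cells, with a difference of 1.67 (SE 0.23, adjusted p = 1.25e-05).

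Oasl2, of the oligoadenylate synthetase family, had 4.99, 3.30, 5.24 and 4.06 FPM in control and 0.612, 0.219, 0.802 and 1.21 FPM in acidic NRK-52E libraries, and 15.47, 12.7, 14.8 and 14.3 FPM in control and 4.98, 7.42, 5.29 and 6.61 FPM in acidic NRK-49F libraries. NRK-49F libraries exceeded those of NRK-52E at each pH, and all libraries at pH 6.0 were below their controls. Oasl2 fell by 2.60 on the log2 scale (SE 0.39, adjusted p = 1.44e-04) in NRK-52E cells and fell by 1.24 on the log2 scale (SE 0.17, adjusted p = 6.45e-05) in NRK-49F cells. The difference of -1.38 (SE 0.40, adjusted p = 0.00766) lost its call without any single library of N1, N3, N4, N5, N6, N7, N9, N10, N12, N13, N14 or N16, with values from -1.76 to -1.07. Oas1a, an enzyme of the same family whose close copies may share its counts, was near the detection limit at 1.08, 0.867, 1.85 and 1.004 FPM in control and 0.612, 0.219, 0.361 and 1.02 FPM in acidic NRK-52E libraries, and 1.04, 0.715, 1.32 and 1.67 FPM in control and 0.0890, 0.199, 0.194 and 0.250 FPM in acidic NRK-49F libraries. Acidic NRK-49F libraries held only 2 to 8 counts each and overlapped with acidic NRK-52E libraries, and the NRK-52E groups overlapped with each other. With no filter on low counts Oas1a fell by 2.63 on the log2 scale (SE 0.49, adjusted p = 1.89e-04) in NRK-49F cells. NRK-52E cells had a log2 fold change of -1.12 (SE 0.46, adjusted p = 0.0476) in the filtered test, which was not called, nor was the difference (1.51). With a minimum of 1 CPM in 4 libraries it was not tested in NRK-49F cells.

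Mx1, the sister GTPase of Mx2, was at 0.235, 0.206, 0.420 and 0.430 FPM in control and 0, 0, 0.0401 and 0.140 FPM in acidic NRK-52E libraries, and 2.42, 3.58, 3.77 and 3.82 FPM in control and 0.133, 0.398, 0.290 and 0.718 FPM in acidic NRK-49F libraries. It was detected at more than 1 FPM in the NRK-49F libraries at pH 7.4 alone, and it did not pass the filter for the pH test in NRK-52E cells. In the fit of all 16 libraries Mx1 was called as lower at pH 6.0 in NRK-52E cells. With no filter on low counts it was not called there, with 5 to 10 counts in control and 0 to 3 in acidic libraries. Mx1 fell by 3.09 on the log2 scale (SE 0.40, adjusted p = 4.99e-05) in NRK-49F cells, with 42 to 96 counts at pH 7.4 and 3 to 23 at pH 6.0. Ifit1, which binds viral RNA, was measured at 0.377, 0.248, 0.965 and 0.239 FPM in control and 0, 0.132, 0.0802 and 0.372 FPM in acidic NRK-52E libraries, and 1.10, 1.99, 2.25 and 2.15 FPM in control and 0.0890, 0.398, 0.226 and 0.187 FPM in acidic NRK-49F libraries. The same group stood above the rest, and NRK-52E cells were not tested. With no filter on low counts Ifit1 fell by 3.10 on the log2 scale (SE 0.46, adjusted p = 1.29e-05) in NRK-49F cells, with 19 to 54 counts in control and 2 to 7 in acidic libraries, and it was not tested with a minimum of 1 CPM in 4 libraries.

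Rsad2, or viperin, which makes a chain-terminating nucleotide, reached 1.41, 1.11, 1.43 and 1.67 FPM in control and 0.796, 0.877, 0.481 and 0.791 FPM in acidic NRK-52E libraries, and 2.94, 1.89, 3.31 and 1.71 FPM in control and 0.267, 0.199, 0.484 and 0.499 FPM in acidic NRK-49F libraries. Values at pH 6.0 were below those at pH 7.4 in each line. Rsad2 fell by 2.66 on the log2 scale (SE 0.37, adjusted p = 9.51e-05) in NRK-49F cells, and in NRK-52E cells it had a log2 fold change of -0.92 (SE 0.28, adjusted p = 0.0130), which at this FDR was not called except with library totals as the scaling. The difference of 1.72 (SE 0.47, adjusted p = 0.00535) lost its call with library totals (1.48) and without N2, N3, N4, N5, N9, N11, N12 or N13 (1.55 to 1.90 over all libraries left out). Cmpk2, a nucleotide kinase induced alongside it, had means of 7.68 and 3.56 FPM in NRK-52E cells, where it fell by 1.10 on the log2 scale (SE 0.21, adjusted p = 8.21e-04), and of 19.3 and 3.95 FPM in NRK-49F cells, where it fell by 2.28 on the log2 scale (SE 0.14, adjusted p = 1.78e-07). The Cmpk2 effects differed by 1.17 (SE 0.24, adjusted p = 5.85e-04).

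Ifit2, a relative of Ifit1, moved the other way, at 1.13, 1.82, 0.629 and 1.10 FPM in control and 1.96, 2.50, 2.25 and 2.47 FPM in acidic NRK-52E libraries, and 24.7, 20.5, 23.6 and 20.3 FPM in control and 36.0, 34.7, 28.5 and 30.6 FPM in acidic NRK-49F libraries. NRK-49F libraries were well above those of NRK-52E, and in each line the libraries at pH 6.0 exceeded those at pH 7.4. Ifit2 rose by 0.54 on the log2 scale (SE 0.12, adjusted p = 0.00239) in NRK-49F cells, a call lost with all 16 libraries in one fit, and NRK-52E cells had a log2 fold change of 0.98 (SE 0.30, adjusted p = 0.0142), which was called in that fit and without N2. The difference of 0.43 was not called. Ifitm3, which hinders membrane fusion of viruses, fell by 0.62 on the log2 scale (SE 0.11, adjusted p = 5.11e-04) in NRK-49F cells and was not called in NRK-52E cells (-0.35), nor was the difference (0.25). Ifitm2, Ifitm1, Ifit3 and Oasl were called for pH in neither line. Oas2 had at most 8 counts in a library and was not tested.

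ISG15 is a ubiquitin-like protein that is attached to other proteins, and 7 genes of this system and of related ubiquitin and ADP-ribose enzymes were on the list. Isg15 itself was at 14.9, 12.02, 11.3 and 12.3 FPM in control and 28.2, 16.53, 20.1 and 21.8 FPM in acidic NRK-52E libraries, and 17.0, 19.3, 18.4 and 19.3 FPM in control and 8.50, 10.4, 8.81 and 10.95 FPM in acidic NRK-49F libraries. The lines exchanged their order, NRK-52E being lower than NRK-49F cells at pH 7.4, and at pH 6.0 every NRK-52E library exceeded those of NRK-49F cells. Isg15 rose by 0.79 on the log2 scale (SE 0.17, adjusted p = 0.00199) in NRK-52E cells and fell by 0.94 on the log2 scale (SE 0.13, adjusted p = 1.09e-04) in NRK-49F cells, with a difference of 1.72 (SE 0.22, adjusted p = 5.36e-06). The lower level in NRK-52E cells at pH 7.4 lost its call with library totals and without N2 or N5 (-0.56 to -0.43). Herc6, a ligase that attaches ISG15 in rodents, was present at 0.424, 1.28, 1.22 and 0.908 FPM in control and 3.37, 3.02, 3.17 and 3.54 FPM in acidic NRK-52E libraries, and 5.25, 4.96, 4.10 and 2.59 FPM in control and 2.09, 1.06, 1.35 and 3.15 FPM in acidic NRK-49F libraries. It was higher at pH 6.0 in all 4 NRK-52E libraries, and the NRK-49F groups overlapped. Herc6 rose by 1.77 on the log2 scale (SE 0.31, adjusted p = 4.10e-04) in NRK-52E cells, whereas NRK-49F cells had a log2 fold change of -1.11 (SE 0.34, adjusted p = 0.0163), which was called as lower with no filter, in the fit of all 16 libraries, and without N14 or N16. The effects differed by 2.86 (SE 0.48, adjusted p = 9.43e-05).

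Usp18, the protease that removes ISG15 and restrains Ifnar2, was at 2.97, 3.80, 4.82 and 4.26 FPM in control and 2.45, 3.81, 4.49 and 7.77 FPM in acidic NRK-52E libraries, and 71.3, 73.3, 78.5 and 74.6 FPM in control and 118, 130, 131 and 145 FPM in acidic NRK-49F libraries. The lines were far apart at each pH, and only the pH groups of NRK-49F cells were separate. Usp18 rose by 0.82 on the log2 scale (SE 0.09, adjusted p = 1.53e-05) in NRK-49F cells, and NRK-52E cells had a log2 fold change of 0.24 (SE 0.32, adjusted p = 0.517). The difference of -0.58 (SE 0.30, adjusted p = 0.114) was not called except without N8, and ranged from -0.94 to -0.48 over the libraries left out. At pH 7.4 Usp18 was 17.7-fold lower in NRK-52E than in NRK-49F cells. Trim25, a ubiquitin ligase that activates RIG-I, stood at 42.0, 57.4, 59.1 and 55.1 FPM in control and 16.4, 22.7, 18.6 and 7.31 FPM in acidic NRK-52E libraries, and 22.5, 23.2, 9.93 and 29.1 FPM in control and 23.8, 22, 23.6 and 25.5 FPM in acidic NRK-49F libraries. NRK-52E cells were high at pH 7.4 and low at pH 6.0, and the NRK-49F groups overlapped, with N13 lowest. Trim25 fell by 1.71 on the log2 scale (SE 0.27, adjusted p = 2.37e-04) in NRK-52E cells, against a log2 fold change of 0.16 (SE 0.23, adjusted p = 0.591) in NRK-49F cells, and the difference was -1.87 (SE 0.39, adjusted p = 7.32e-04).

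Dtx3l, a ubiquitin ligase that forms a complex with Parp9, had a level of 77.6, 90.2, 95.5 and 79.1 FPM in control and 114, 112, 120 and 94.3 FPM in acidic NRK-52E libraries, and 95.7, 97.3, 76.6 and 79.0 FPM in control and 60.5, 51.5, 52.3 and 65.2 FPM in acidic NRK-49F libraries. Its NRK-52E groups overlapped, by a single library at pH 6.0, and the NRK-49F groups did not. Dtx3l rose by 0.37 on the log2 scale (SE 0.10, adjusted p = 0.00805) in NRK-52E cells and fell by 0.60 on the log2 scale (SE 0.11, adjusted p = 8.13e-04) in NRK-49F cells, with a difference of 0.96 (SE 0.16, adjusted p = 8.01e-05). The NRK-52E call was lost with library totals (0.16), with no filter on low counts (0.34), in the fit of all 16 libraries (0.36), with the second number as a covariate (0.37), and without N1, N2, N3, N4, N6 or N7 (0.31 to 0.43). Parp9 fell by 0.88 on the log2 scale (SE 0.10, adjusted p = 2.65e-05) in NRK-49F cells and had a log2 fold change of 0.10 (SE 0.09, adjusted p = 0.307) in NRK-52E cells, a value that turned negative with library totals, and the difference was 0.97 (SE 0.14, adjusted p = 1.35e-05). Parp14, a mono-ADP-ribosyltransferase, was at 107, 108, 114 and 110 FPM in control and 35.4, 43.0, 44.1 and 52.1 FPM in acidic NRK-52E libraries, and 283, 267, 270 and 277 FPM in control and 140, 131, 137 and 170 FPM in acidic NRK-49F libraries. All 4 groups were separate, with NRK-49F cells above NRK-52E cells at each pH. It fell by 1.32 on the log2 scale (SE 0.12, adjusted p = 3.38e-06) in NRK-52E and fell by 0.93 on the log2 scale (SE 0.09, adjusted p = 9.08e-06) in NRK-49F cells.

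**Figure D2:**
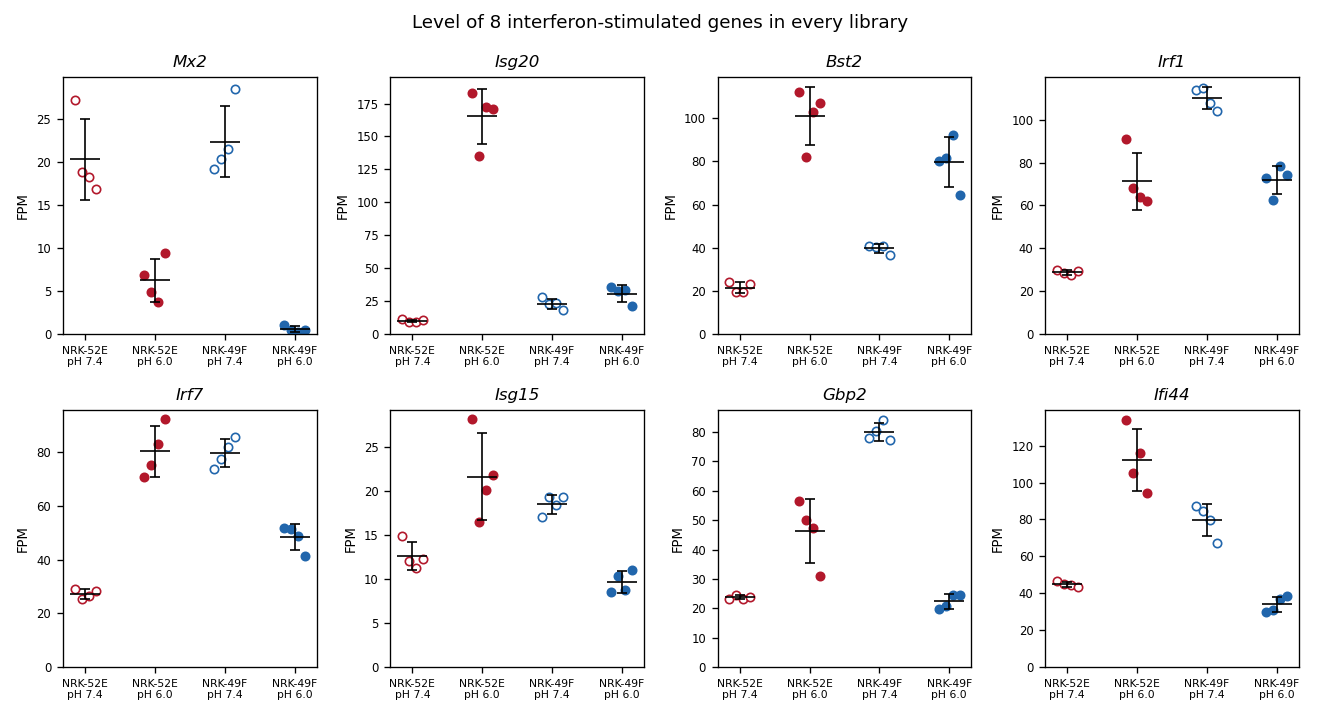
Level in FPM (vertical axes, linear and starting at 0) of 8 interferon-stimulated genes in each of the 16 libraries, with open points for pH 7.4 and filled points for pH 6.0, NRK-52E in red and NRK-49F in blue, and the mean and SD of 4 libraries in black. Irf1, Irf7, Isg15, Gbp2 and Ifi44 are up at pH 6.0 in NRK-52E and down in NRK-49F cells, Mx2 is lower and Bst2 higher in both, and the Isg20 means are 10.1, 165, 23.1 and 30.7 FPM.

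The guanylate-binding proteins are GTPases that attack vacuoles of intracellular pathogens. Gbp2 was at 23.1, 24.6, 23.2 and 24.0 FPM in control and 56.5, 50.2, 47.2 and 30.9 FPM in acidic NRK-52E libraries, and 78.0, 80.4, 84.2 and 77.3 FPM in control and 19.8, 20.7, 24.4 and 24.5 FPM in acidic NRK-49F libraries. NRK-49F libraries at pH 7.4 were highest, and the pH groups were separate in each line. Gbp2 rose by 0.97 on the log2 scale (SE 0.16, adjusted p = 2.91e-04) in NRK-52E cells and fell by 1.84 on the log2 scale (SE 0.10, adjusted p = 9.32e-08) in NRK-49F cells, and the effects differed by 2.80 (SE 0.20, adjusted p = 6.54e-09). Gbp4 fell by 1.85 on the log2 scale (SE 0.50, adjusted p = 0.00826) in NRK-49F cells, from means of 2.50 to 0.693 FPM, was not tested in NRK-52E cells, and lost its call in the fit of all 16 libraries and without any single library other than N15 (-2.53 to -1.47). Gbp5 had at most 17 counts in a library and did not pass the filter. With no filter on low counts, and without N10, Gbp5 was tested and called as lower in NRK-49F cells.

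The remaining 5 genes act in varied ways. Ifi44, a cytosolic protein induced by type I interferon, was measured at 46.5, 45.1, 44.2 and 43.6 FPM in control and 134, 105, 116 and 94.3 FPM in acidic NRK-52E libraries, and 87.1, 84.7, 79.7 and 67.2 FPM in control and 30.0, 31.1, 36.8 and 38.3 FPM in acidic NRK-49F libraries. Its pH groups were separate in each line and ran in opposite directions. Ifi44 rose by 1.33 on the log2 scale (SE 0.11, adjusted p = 1.83e-06) in NRK-52E cells and fell by 1.23 on the log2 scale (SE 0.12, adjusted p = 4.60e-06) in NRK-49F cells, with a difference of 2.55 (SE 0.17, adjusted p = 2.75e-09). Xaf1, a promoter of cell death, was at 5.51, 5.20, 5.03 and 5.21 FPM in control and 13.4, 12.1, 12.2 and 6.84 FPM in acidic NRK-52E libraries, and 6.93, 8.02, 5.89 and 7.84 FPM in control and 4.005, 3.84, 4.84 and 3.21 FPM in acidic NRK-49F libraries. The NRK-52E library N8 was the lowest of its group at pH 6.0, and no pH groups overlapped. Xaf1 rose by 1.10 on the log2 scale (SE 0.20, adjusted p = 6.92e-04) in NRK-52E cells and fell by 0.85 on the log2 scale (SE 0.19, adjusted p = 0.00237) in NRK-49F cells, and the difference was 1.94 (SE 0.28, adjusted p = 2.13e-05).

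Ifi27, a mitochondrial protein, fell by 1.22 on the log2 scale (SE 0.23, adjusted p = 7.39e-04) in NRK-52E cells, from 38.0 to 16.1 FPM, and fell by 1.76 on the log2 scale (SE 0.14, adjusted p = 1.22e-06) in NRK-49F cells, from 343 to 102 FPM. Ifi35 rose by 0.81 on the log2 scale (SE 0.13, adjusted p = 2.76e-04) in NRK-52E cells and had a log2 fold change of -0.15 (SE 0.11, adjusted p = 0.245) in NRK-49F cells, with a difference of 0.95 (SE 0.17, adjusted p = 1.31e-04). Sp100, a component of nuclear bodies, fell by 1.25 on the log2 scale (SE 0.22, adjusted p = 4.42e-04) in NRK-52E cells. In NRK-49F cells its -0.54 passed the threshold in DESeq2 but not in edgeR, and it was called as lower without N12. The difference (-0.73) was not called, but it was with library totals and without N8. Over the listed genes, no call for pH changed its sign under any scaling, filter, covariate or left-out library tried.

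Other genes of the interferon pathway were taken from a further list of 89, also chosen with earlier results of these data known, of which 81 had a row. Of 10 interferon genes, Ifna1, Ifnb1, Ifnk, Ifng, Ifnl1 and Ifnl3 had no count in any library, and Ifna2, Ifna4 and Ifna5 had at most 1 count in a library. Transcripts of these genes were thus not detectable at this depth in either line, where 3 counts would be at most 0.199 FPM. Ifne was the exception in NRK-49F cells, with 0.462, 0.358, 1.06 and 0.398 FPM in control and 0.934, 0.596, 0.774 and 1.37 FPM in acidic libraries. These groups overlapped, and its log2 fold change was 0.77 (SE 0.43, adjusted p = 0.149), which was not called. NRK-52E libraries held 0, 0, 0 and 0.0478 FPM in control and 0.0612, 0, 0.1204 and 0.0931 FPM in acidic medium, too low for the test.

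Over the whole pathway list, 20 of 61 genes tested were higher (32.8%) and 15 lower (24.6%) at pH 6.0 in NRK-52E cells, near the 28.2% and 28.5% of all genes. Of 64 tested in NRK-49F cells, 3 were higher (4.69%) and 26 lower (40.6%), against 18.4% and 19.4% of all genes. Without genes that passed the filter through one group alone, such as Epsti1, 25 of 63 were lower (39.7%), against 18.7%. The median log2 fold changes were 0.04 and -0.41, beside 0.00 for all genes in either line. Receptors and JAK-STAT components gave 7 higher (43.8%) and 4 lower (25.0%) of 16 in NRK-52E cells, and 2 higher and 4 lower (25.0%) of 16 in NRK-49F cells. The number higher in NRK-52E cells fell to 4 (25.0%) without N6 or with library totals, below the 28.2% of all genes. It reached 9 in the fit of all 16 libraries. Sensing components gave 3 higher and 3 lower of 9 in NRK-52E cells (33.3% each), and 2 lower of 9 (22.2%) in NRK-49F cells. Further interferon-stimulated genes split into 10 higher (27.8%) and 8 lower (22.2%) of 36 in NRK-52E cells, no more than the shares of all genes, and 1 higher (2.63%) and 20 lower (52.6%) of 38 in NRK-49F cells, or 19 lower of 37 without Epsti1.

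Ifi27l2b, a relative of Ifi27 whose copies may share counts, was at 1.65, 1.73, 0.965 and 0.861 FPM in control and 168, 116, 135 and 151 FPM in acidic NRK-52E libraries, and 26.0, 23.4, 30.7 and 28.0 FPM in control and 112, 119, 77.8 and 49.9 FPM in acidic NRK-49F libraries. Control NRK-52E libraries were lowest, acidic libraries of the lines overlapped, and the pH groups were separate in each line. Ifi27l2b rose by 6.78 on the log2 scale (SE 0.23, adjusted p = 1.93e-08) in NRK-52E cells and rose by 1.73 on the log2 scale (SE 0.23, adjusted p = 6.56e-05) in NRK-49F cells, with a difference of 5.04 (SE 0.35, adjusted p = 6.32e-09). Cxcl10, a chemokine that attracts T cells, was at 0.377, 0.289, 0.336 and 0.526 FPM in control and 4.90, 3.68, 2.29 and 1.95 FPM in acidic NRK-52E libraries, and 57.9, 57.7, 58.5 and 50.4 FPM in control and 7.25, 9.08, 7.87 and 13.54 FPM in acidic NRK-49F libraries. It was highest in NRK-49F cells at pH 7.4 and ran in opposite directions in the lines. Cxcl10 rose by 3.06 on the log2 scale (SE 0.37, adjusted p = 3.38e-05) in NRK-52E cells, with 7 to 11 counts in control, where 1 library reached the cutoff of the filter, and 42 to 84 in acidic libraries, and fell by 2.57 on the log2 scale (SE 0.18, adjusted p = 4.96e-07) in NRK-49F cells, with a difference of 5.61 (SE 0.40, adjusted p = 7.81e-09).

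Psmb8, a subunit of the immunoproteasome, had 7.63, 8.47, 8.31 and 7.75 FPM in control and 61.1, 38.4, 49.8 and 35.9 FPM in acidic NRK-52E libraries, and 157, 153, 191 and 163 FPM in control and 186, 198, 200 and 175 FPM in acidic NRK-49F libraries. NRK-52E cells were low at pH 7.4, and NRK-49F cells were high at each pH with overlapping groups. Psmb8 rose by 2.53 on the log2 scale (SE 0.17, adjusted p = 6.34e-07) in NRK-52E cells and had a log2 fold change of 0.19 (SE 0.10, adjusted p = 0.122) in NRK-49F cells, with a difference of 2.33 (SE 0.19, adjusted p = 3.44e-08). Ccl5, a chemokine for T cells and monocytes, had 19.2, 18.6, 27.1 and 20.8 FPM in control and 0.667, 1.39, 1.19 and 1.93 FPM in acidic libraries of NRK-49F cells and no count in any NRK-52E library. The NRK-49F groups were far apart, and in NRK-52E cells 3 counts per library would be at most 0.184 FPM. Ccl5 fell by 4.02 on the log2 scale (SE 0.26, adjusted p = 3.35e-07) in NRK-49F cells. Epsti1 in the same line was at 1.79, 1.23, 1.46 and 1.23 FPM in control and 0.133, 0.199, 0.0645 and 0.0936 FPM in acidic libraries. It was near the detection limit at pH 6.0, with 2 to 3 counts per library. Its filtered test is not given, since Epsti1 passed the filter through the control libraries alone and so had to differ there. With no filter it fell by 3.58 on the log2 scale (SE 0.50, adjusted p = 6.17e-06).

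Irf5, a transcription factor downstream of Toll-like receptors, in NRK-52E cells was at 3.01, 4.75, 3.48 and 3.06 FPM in control and 0.979, 0.964, 0.522 and 1.07 FPM in acidic libraries. The groups were separate, and it fell by 2.01 on the log2 scale (SE 0.29, adjusted p = 9.94e-05), against -0.22 in NRK-49F cells, with a difference of -1.81 (SE 0.32, adjusted p = 1.70e-04). The kinase Ikbke in NRK-52E cells stood at 16.1, 16.52, 16.7 and 13.1 FPM in control and 3.06, 5.26, 2.93 and 4.37 FPM in acidic libraries. It likewise fell by 1.98 on the log2 scale (SE 0.21, adjusted p = 1.17e-05), without overlap, against 0.06 in NRK-49F cells, with a difference of -2.05 (SE 0.28, adjusted p = 1.17e-05). Lgals3bp, a secreted glycoprotein, in NRK-52E cells was at 125, 117, 111 and 108 FPM in control and 35.2, 38.2, 35.9 and 56.7 FPM in acidic libraries. Its groups did not overlap, and it fell by 1.46 on the log2 scale (SE 0.16, adjusted p = 1.23e-05) there and by 0.83 in NRK-49F cells. The phosphatase Ptpn1 had 18.3, 17.6, 15.48 and 20.2 FPM in control and 33.0, 28.2, 29.6 and 25.9 FPM in acidic libraries of the fibroblast line. The SUMO ligase Pias1 had 19.1, 18.7, 15.6 and 17.0 FPM in control and 27.4, 22.8, 21.97 and 27.1 FPM in acidic libraries of that line. All acidic libraries were above the controls for both genes. Ptpn1 rose by 0.70 on the log2 scale (SE 0.12, adjusted p = 3.74e-04) there. In NRK-52E cells it rose by 0.68 on the log2 scale (SE 0.18, adjusted p = 0.00580) with overlapping groups, a call lost with library totals and without N1, N2, N4, N5, N6 or N7 (0.54 to 0.82). In the fibroblast line Pias1 rose by 0.50 on the log2 scale (SE 0.12, adjusted p = 0.00462), a call lost without N11, N14 or N16 (0.45 to 0.56). In NRK-52E cells it had a log2 fold change of 0.44 (SE 0.13, adjusted p = 0.0103), which was not called, nor was the difference (-0.07).

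Promoter sequences from RefSeq (GRCr8) were matched by symbol for 33 of the 44 genes and were not matched for Irf2, Ddx58, Dhx58, Zbp1, Mx2, Ifit1, Ifit2, Ifitm1, Oas2, Isg15 and Usp18. The 250 bases before the gene start were searched on both strands for GAAANNGAAA, the core of the interferon-stimulated response element, and for TTCNNNGAA, the core of the gamma-activated site, which can overlap with it. The former was found in 18 of the 33 promoters (54.5%) and in 3.41% of all 33469 promoters, the latter in 7 (21.2%) and 7.67%. The genes were chosen as known parts of the interferon response, so higher shares were built into that choice and say nothing about pH. Among genes higher at pH 6.0 in NRK-52E cells, 8 of 14 matched promoters held GAAANNGAAA, and among genes lower there 3 of 8 did. Among genes lower in NRK-49F cells it was 11 of 19. A link between the letters and the direction of change was not tested. A match is a description of letters and not a measured binding site.

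The stretches around the match are shown for the 2 genes with the greatest rise in NRK-52E cells and for 3 genes with opposite signs in the lines, 5′ to 3′ on the strand of the gene, with the matched letters or their reverse complement in capitals. They lie at chr1:142239957-142239986 on the plus strand for Isg20, chr16:18255079-18255108 on the minus strand for Bst2, chr1:205800073-205800102 on the minus strand for Irf7, chr2:234005686-234005715 on the plus strand for Gbp2 and chr2:243303847-243303876 on the minus strand for Ifi44, all in GRCr8 and all upstream of the gene start. The Bst2 match overlaps with a further match 6 bases downstream.
Isg20: taatgaaccaGAAACTGAAActaaaacggc
Bst2: ccctttccagGAAAATGAAActgaaaggtg
Irf7: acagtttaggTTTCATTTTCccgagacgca
Gbp2: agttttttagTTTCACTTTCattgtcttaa
Ifi44: gcacactgagTTTCAGTTTCatttcccagg
The capitals start 92 bases before the gene start in Isg20, 131 in Bst2, 69 in Irf7, 31 in Gbp2 and 26 in Ifi44. The first 2 carry the letters on the strand of the gene and the other 3 on the opposite strand. The 5 genes were picked among those with a match. GAAANNGAAA was also found in genes lower in both lines (Oasl2, Parp14 and Ifi27), and not in Stat2, Irf1 and Dtx3l, which moved in opposite directions.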

How the data were processed

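The table of raw counts that the authors deposited gives read pairs of rat poly(A) RNA assigned to Ensembl genes of the rn6 assembly by featureCounts, with multi-mapping fragments kept. Genes with close copies, such as the Mx, Oas, Ifit, Ifitm and Ifi27 families, are therefore uncertain, and strand use is not given in the sources used here. The study's methods name tophat2 as aligner and the submitters' processing notes HISAT2 2.1.0. Groups came from the sample labels, which write the media as pH 7 and pH 6.

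In R 4.3.3, edgeR 4.0.16 (quasi-likelihood F test after TMM and filterByExpr) and DESeq2 1.42.0 (Wald test) were run on the 8 libraries of each comparison and on all 16 for the interaction, over all genes with Benjamini-Hochberg adjustment, after a test on simulated data. A call needed an FDR below 0.01 in both tools. The SE was taken as the size of the log2 fold change over the root of its F value. Permutation used scipy 1.17.1 and tables pandas 2.3.3. No library pair of a group differed by as little as sampling noise.

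The genes and lists were chosen with earlier results of these data known. Library values are printed for Mx2, for the 5 largest called rises and falls in each line whose higher group reached 1 FPM, for genes called with opposite signs, and for the 3 largest rises and falls per line on the pathway list, with its interferon genes. The totals of that list include one further gene, whose own result is not reported here. Alternatives covered scaling (DESeq2 factors, library totals), filters (none, or 1 CPM in 4 libraries), each tool alone, an FDR of 0.05, a single fit of 16 libraries, the second number of the column names as a covariate or a split, and each library left out.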

Additional observations from a re-analysis of the deposited data

Results flagged for a closer look

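In 3 of the 125 groups of 4 libraries checked for the named genes, a single library lay far from the other 3, where chance gives about 1 in 20 groups, or 6.25. Cxcl10 had 50.4 FPM in N14, against 57.7 to 58.5 FPM in the other NRK-49F libraries at pH 7.4. Ikbke had 13.1 FPM in N6, against 16.1 to 16.7 FPM in the other NRK-52E libraries at pH 7.4. Lgals3bp had 56.7 FPM in N8, against 35.2 to 38.2 FPM in the other NRK-52E libraries at pH 6.0. This check covered the named genes alone. Over the whole count table, chi-square per degree of freedom between library pairs of a group was largest for N8 with N4 (92.2) and with N7 (71.5). It was 9.11 for N4 with N7, and N11 with N16 in acidic NRK-49F cells reached 62.1.

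For 17 genes of the list of 45 described library by library, the pH effect differed between the cell lines in the test of the interaction. Genes were described so because of large or opposite changes, which favours such a difference, and their number supports nothing. Of all 14679 genes tested, 5412 (36.9%) differed. On the log2 scale, as the NRK-52E effect minus the NRK-49F effect, the largest differences among these 17 genes were 3.62 for Isg20, 3.61 for Mx2, 2.86 for Herc6, 2.80 for Gbp2, 2.55 for Ifi44 and 2.29 for Irf7. Among the same genes, differences between 1 and 2 were found for Xaf1 (1.94), Irf1 (1.92), Rsad2 (1.72), Isg15 (1.72), Eif2ak2 (1.67), Stat2 (1.24) and Bst2 (1.23). Dtx3l differed by 0.96. The difference was negative for Trim25 (-1.87), Oasl2 (-1.38) and Irf9 (-0.54).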

How the results depend on the processing

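The number of listed genes higher in NRK-52E cells at pH 7.4 went from 3 to 8 with library totals as the scaling. The number with a pH effect more positive in NRK-49F cells went from 3 to 5 at an FDR of 0.05, to 6 with library totals, and to between 1 and 7 with a library left out, 7 being the count without N8. The cause was not tested. The other totals of listed genes called in a comparison stayed within 1.5 times. Smaller counts moved more under the scalings, filters, fits and left-out libraries tried. The antiviral effectors lower in NRK-52E cells went from 3 to 6 without N8, and those higher in NRK-49F cells ran from 1 to 3. On the pathway list, 14 to 21 genes were higher and 11 to 19 lower in NRK-52E cells, and 2 to 3 higher and 25 to 27 lower in NRK-49F cells. Listed genes called in both lines were 17 to 20, of which 7 to 9 had opposite signs. With a library left out, the number changed was 23 to 28 in NRK-52E, 26 to 28 in NRK-49F, 27 to 30 between the lines at pH 7.4, 23 to 27 at pH 6.0, and 17 to 24 for the interaction. For the pH effects and interactions of the genes printed library by library, 1631 of 1734 alternative values kept their side of the threshold, 86 lost the call and 17 gained it. No called value among these changed its sign, and uncalled ones did in 6 cases (Usp18 in NRK-52E cells, Trim25 and Eif2ak2 in NRK-49F cells, and the Mx1 interaction). Differences between the lines near 0, such as Mx2 at pH 7.4 and Irf1 at pH 6.0, also changed sign. Of the 86, 28 came from splits by the second column number, which leave 2 libraries per pH. That number does not cross the cell lines fully, so it was left out of the direct comparisons of the lines and entered the interaction as a covariate within each line. No paired analysis was possible because the labels number the libraries N1 to N16 without repeats. Depth limits genes with few counts, such as Mx1, Ifit1, Oas1a and Gbp4, and Mx2 in acidic NRK-49F libraries, and floors cover counting error only.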
